A study of Mus musculus with 6 samples.

Results

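The apolipoproteins of the liver were taken by symbol, as Apoa1, Apoa2, Apoa4, Apoa5, Apob, Apoc1, Apoc3, Apoe, Apoh and Apom, which gave 10 of the 43346 gene IDs in the count tables. The libraries came from livers of C57BL6 mice aged 3 months. In the 3 DKO libraries the genotype is a loss of both β-catenin and γ-catenin from hepatocytes, and the other 3 libraries are labelled Control. The labels name neither the Cre driver nor the alleles of the Control mice. Which cells other than hepatocytes keep both catenins is therefore not known from them. Separate animals are not stated in the labels, so the p-values reflect the spread between these libraries alone, which may be technical. Values were whole read counts per gene.

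The libraries labelled DKO were shallow and held few reads of liver genes. They had 309731, 525037 and 1491237 reads assigned to genes in replicates 1, 2 and 3, against 12320487 to 15869639 in the Control libraries, and rows that name no gene took 95.3% to 97.3% of reads in the DKO libraries and 65.1% to 66.7% in the Control libraries. Mitochondrially encoded genes took 6.27%, 14.4% and 62.7% of gene counts in DKO replicates 1, 2 and 3, against 6.34% to 6.57% in Control. Of the targeted transcripts, Ctnnb1 had 0, 52 and 65 reads in the DKO libraries and 2650 to 2945 in Control, and Jup had 6, 1 and 11, against 196 to 339. Neither passed the threshold (adjusted p = 0.171 and 0.0847 in edgeR's quasi-likelihood test), so every direction given here is one between libraries as labelled. Of the 10 hepatocyte markers fixed for a check of the tissue, 9 were found, and none of the 9 was at 0 in any library. Their summed level was 1762.8, 52202 and 5632 counts per 1000000 gene counts (CPM) in DKO replicates 1, 2 and 3, against 111587 to 127088 CPM in Control.

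Apolipoproteins are the protein part of lipoproteins, the particles that carry triglyceride and cholesterol in blood. The liver secretes triglyceride-rich very low density lipoprotein (VLDL), built around a single large molecule of apolipoprotein B, and most of the protein of high density lipoprotein (HDL). The smaller apolipoproteins exchange between particles and set how fast enzymes and receptors act on them. Several of their genes lie in clusters and are driven in hepatocytes by nuclear receptors, among them HNF4α, which the title of the series names.

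In these annotations Apoa1 (chromosome 9, 46228580 to 46230466, mm10), Apoc3 (46232933 to 46235636), Apoa4 (46240696 to 46243459) and Apoa5 (46268633 to 46271919) formed 1 cluster, and Apoc1 (chromosome 7, 19689481 to 19692660) and Apoe (19696109 to 19699188) another. Apoa2 lay alone on chromosome 1 (171225054 to 171226379), Apob on 12 (7977648 to 8016835), Apoh on 11 (108343354 to 108414396) and Apom on 17 (35128997 to 35132050). All 10 are protein-coding. Their exons add up to between 537 bases for Apoa2 and 13934 for Apob. Exons of Apoa4 overlap the antisense gene Gm10680 over 632 bases and those of Apoh overlap Prkca over 30 bases. The strand setting of the counting is not given in the sources used here, so reads in those stretches cannot be assigned with certainty.

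The start regions of 8 of the 10 genes were found in RefSeq's promoter table (GRCm38.p6) and searched on both strands over the 250 bases before the start. The DNA before 5 of these genes is shown because this is where hepatocyte factors are known to act on the family. Each stretch is on the plus strand, which is the gene's own strand, and ends before the more upstream of the RefSeq and GENCODE starts. Capitals mark TATAAA or CAAAGNNCA. CAAAGNNCA is a relaxed form of the HNF4 core and was chosen after the windows were seen.
Apob, chr12:7977498-7977647: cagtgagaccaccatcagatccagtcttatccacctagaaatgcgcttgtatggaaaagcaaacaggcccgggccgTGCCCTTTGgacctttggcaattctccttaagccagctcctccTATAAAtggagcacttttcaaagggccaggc
Apoa5, chr9:46268483-46268632: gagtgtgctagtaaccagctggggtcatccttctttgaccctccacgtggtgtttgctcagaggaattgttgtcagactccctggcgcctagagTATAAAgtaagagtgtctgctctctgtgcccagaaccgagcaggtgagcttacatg
Apoa4, chr9:46240594-46240695: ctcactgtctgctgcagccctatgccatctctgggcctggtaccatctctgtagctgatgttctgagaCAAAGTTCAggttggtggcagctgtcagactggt
Apoa2, chr1:171224904-171225053: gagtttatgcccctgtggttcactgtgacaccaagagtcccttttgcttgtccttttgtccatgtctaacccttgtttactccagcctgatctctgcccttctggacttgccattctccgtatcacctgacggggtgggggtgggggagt
Apoa1, chr9:46228430-46228579: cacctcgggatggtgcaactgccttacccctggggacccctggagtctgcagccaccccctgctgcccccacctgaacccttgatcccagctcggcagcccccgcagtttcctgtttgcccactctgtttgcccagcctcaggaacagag
TATAAA was found before Apob, Apoa5 and Apoa2 (the last outside the stretch shown), 3 of 8 genes, against 12.4% of all 32851 windows in the table. CAAAGNNCA was found before Apob, Apoa4 and Apoh, against 5.49% of all windows. The stricter forms CAAAGTCCA and CAAAGGTCA were in none of the 8 windows, against 0.384% and 0.426% of all windows. CCAAT was found before Apoa2 only, against 33.8% of all windows. These are matches of letters, which say nothing about binding.

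The apolipoproteins together took a smaller share of gene counts in every DKO library than in any Control library. Their summed reads were 520, 11620 and 2865 in DKO replicates 1, 2 and 3, which was 0.168% (95% Wilson interval 0.154 to 0.183), 2.21% (2.17 to 2.25) and 0.192% (0.185 to 0.199) of gene counts. In Control they were 781072, 704907 and 593672 reads, or 4.92%, 5.05% and 4.82%. Replicate 2 of the DKO group thus kept 0.449 of the Control mean, and replicates 1 and 3 kept 0.034 and 0.039. With mitochondrially encoded genes left out of the total, replicates 1, 2 and 3 kept 0.034, 0.490 and 0.0978 of the Control mean, so the closeness of replicates 1 and 3 depends on that total. The mean share was 0.858% ± 1.17 in the DKO libraries and 4.93% ± 0.117 in Control (SD, n = 3 each). The groups did not overlap, and a two-sided exact permutation test gave p = 0.1, which groups of 3 cannot go below (adjusted p = 0.3 over 3 library measures). Fewer hepatocytes in a sample and less RNA per hepatocyte cannot be told apart in bulk libraries. Neither can be told apart here from a difference in RNA or library quality. Rows that name no gene took 95.3% to 97.3% of reads in the DKO libraries, and mitochondrially encoded genes took 62.7% of gene counts in DKO replicate 3.

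Of the HDL proteins, Apoa1 encodes the main structural protein of HDL, which activates the enzyme LCAT. Apoa1 had 136, 2071 and 660 reads in the DKO libraries and 163895, 134391 and 108746 in the Control libraries. That was 0.161% ± 0.202 of gene counts in DKO and 0.960% ± 0.0751 in Control (SD, n = 3 each). Apoa2, which encodes the second most abundant HDL protein, had 114, 1808 and 439 reads in the DKO libraries and 107798, 99688 and 86896 in Control. Apom, whose protein carries sphingosine-1-phosphate on HDL, was the rarer of the 3, with 2, 87 and 26 reads in the DKO libraries and 4228, 3636 and 3423 in Control. For all 3 genes DKO replicate 2 was the highest DKO library, and no DKO library reached a Control library in share of gene counts.

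Apob encodes the scaffold of VLDL and of low density lipoprotein. It had 22, 1044 and 209 reads in the DKO libraries and 60314, 49346 and 43952 in Control. Because its exons are long, 18.7 of the 22 reads in DKO replicate 1 were expected from background alone. Background here is the rate of reads per kb of exon at 8600 protein-coding genes that are nearly silent in Control liver, which was 1.34, 0.968 and 2.39 reads per kb in DKO replicates 1, 2 and 3. These genes were chosen by their low Control counts, so any that were expressed only in the DKO samples would raise the rate. The rate is a mean over genes, and single genes departed from it in both directions. Among enterocyte markers without a read in Control, Alpi had 0 DKO reads where 11.0 were expected, and Fabp6 had 17 where 2.26 were. Expected reads of a single gene, and values after their subtraction, are therefore rough.

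Apoe, whose protein is the ligand by which the liver's receptors take up remnant particles, had the most reads of the family in every library. It had 157, 4309 and 791 reads in the DKO libraries and 284969, 282236 and 236990 in Control, or 0.308% ± 0.444 and 1.91% ± 0.114 of gene counts (SD, n = 3 each). Its cluster neighbour Apoc1, whose protein slows receptor uptake, had 50, 916 and 336 reads in the DKO libraries and 60242, 53620 and 41764 in Control. Apoc3, an inhibitor of triglyceride clearance, had 29, 430 and 141 reads in the DKO libraries and 29334, 25876 and 20976 in Control. These 3 genes had the same pattern across libraries as Apoa1 and Apoa2, with DKO replicate 2 well above the other DKO libraries and below every Control library.

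Apoa5, which promotes triglyceride clearance and so acts opposite to Apoc3, had 4, 351 and 131 reads in the DKO libraries and 26234, 20666 and 19739 in Control. Apoh encodes β2-glycoprotein I, a phospholipid-binding plasma protein, and had 2, 585 and 129 reads in the DKO libraries, against 42092, 34269 and 29982 in Control. Apoa4, an apolipoprotein of intestine and liver that rises in mouse liver with fasting and steatosis, had 4, 19 and 3 reads in the DKO libraries and 1966, 1179 and 1204 in Control. In DKO replicate 1 the counts of Apoh, Apoa5, Apoa4 and Apom were all at most 4, near the 2.14, 3.39, 2.44 and 1.36 reads expected from background, so these 4 transcripts were barely detectable there. The same held for Apoa4 in DKO replicate 3, with 3 reads against 4.35 expected.

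Per length of all annotated exons merged, Apoa2 was the highest of the family in all 6 libraries. That length can exceed the length of a single transcript, and the order by transcript length was not examined. The Control order, in reads per kb of exon per 1000000 gene counts, was Apoa2 (13029 ± 340), Apoe (8952 ± 532), Apoa1 (7763 ± 608), Apoc1 (4941 ± 335), Apoc3 (1777 ± 84.8), Apoh (1577 ± 75.5), Apoa5 (626 ± 35.0), Apom (265 ± 8.66), Apob (261 ± 10.4) and Apoa4 (56.2 ± 11.0; SD, n = 3 each). Apom and Apob did not differ beyond their spread, and all other neighbours kept their order in 3 of 3 Control libraries. DKO replicate 2 kept the Control order of all 10. In DKO replicates 1 and 3 Apoa1 stood at 355 and 358 and Apoe at 237 and 248, the reverse of their order in Control. Among Control libraries the share of gene counts varied by 2.61% (Apoa2) to 7.83% (Apoa1) as a coefficient of variation, except for Apoa4 with 19.7%.

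**Figure D1:**
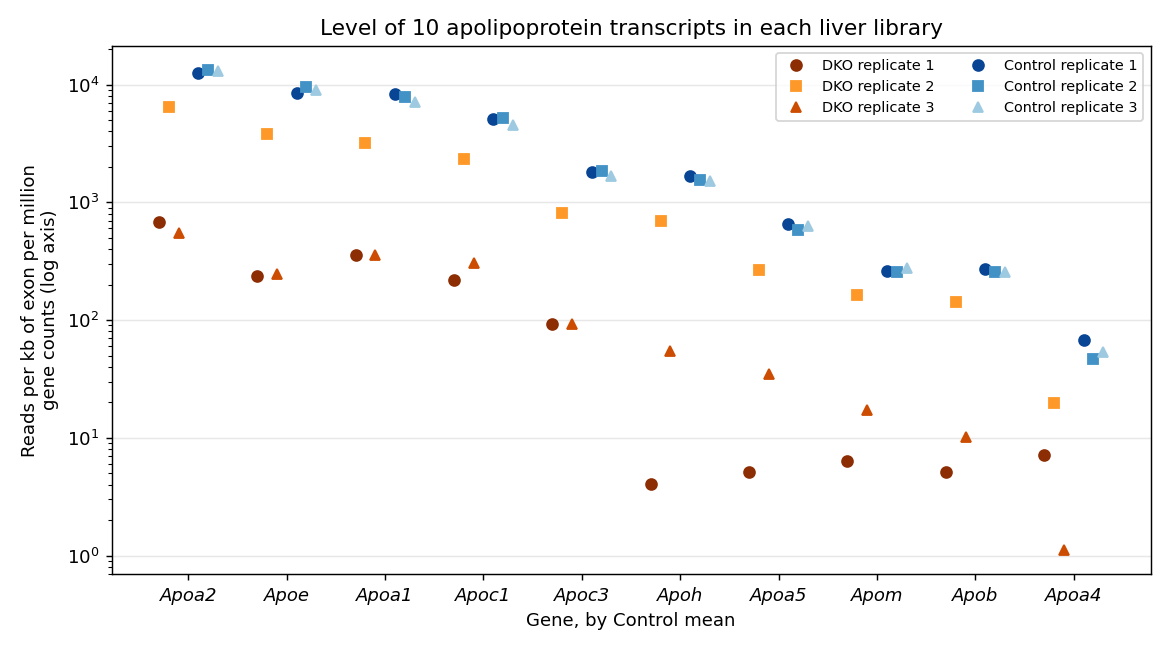
Reads per kb of exon per 1000000 gene counts (log axis) of each apolipoprotein in each library, with the genes ordered by their Control mean and DKO points left of Control points. For every gene all DKO points lie below all Control points, and DKO replicate 2 lies nearest to Control.

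In the comparison of DKO with Control across all genes, Apoa4 was the only apolipoprotein that passed the threshold, and it was lower. Its level scaled by TMM, a trimmed mean that sets library sizes, was 13.7 ± 16.5 CPM in the DKO libraries and 127.5 ± 21.4 CPM in Control (SD, n = 3 each). The log2 fold change was -3.28 (SE 0.92), and edgeR's quasi-likelihood test gave an adjusted p of 0.0169. The other 9 had log2 fold changes of -3.09 (Apoe) to -2.50 (Apom), with adjusted p of 0.117 (Apoc3) to 0.179 (Apob). Among all 15561 genes tested, 12.8% were called lower and 31.3% higher, so that 1 of 10 lower and 0 of 10 higher is close to the background for lower genes and below it for higher ones. All 10 had a lower TMM-scaled CPM in every DKO library than in every Control library, as did 36.4% of all genes tested. The median log2 fold change was -2.93 over the 10 apolipoproteins, -2.76 over 151 abundant liver genes outside the lipoprotein lists and -0.08 over all genes tested. None of those 151 was called in edgeR, and all 151 had a negative fold change. They were chosen by high counts in the Control libraries, so their direction was in part set by that choice.

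These calls depended on DKO replicate 2. Without it all 10 apolipoproteins were called lower, with log2 fold changes of -5.67 (Apoe) to -4.59 (Apoc1), in a fit that called 26.7% of all genes lower. Without DKO replicate 1 there were 4 calls, Apoa4, Apoa5, Apoc3 and Apom, with 22.0% of genes called lower. The call of Apoa4 was lost without Control replicate 1 (adjusted p = 0.0585, with 4.05% of genes called lower) and after subtraction of the expected background reads (adjusted p = 0.192, with 19.0% called lower). DESeq2 called all 10 lower, with 30.7% of genes called lower. edgeR called 7 without a filter on low counts (15.4% of genes) and 3 with DESeq2's size factors (23.0%). On a scale set by the abundant liver genes, which shifted the median of all genes by 4.76, none was called (0.546% of genes were called lower) and 6 of 10 had a positive fold change, as the plot of edgeR fold changes shows.

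**Figure D2:**
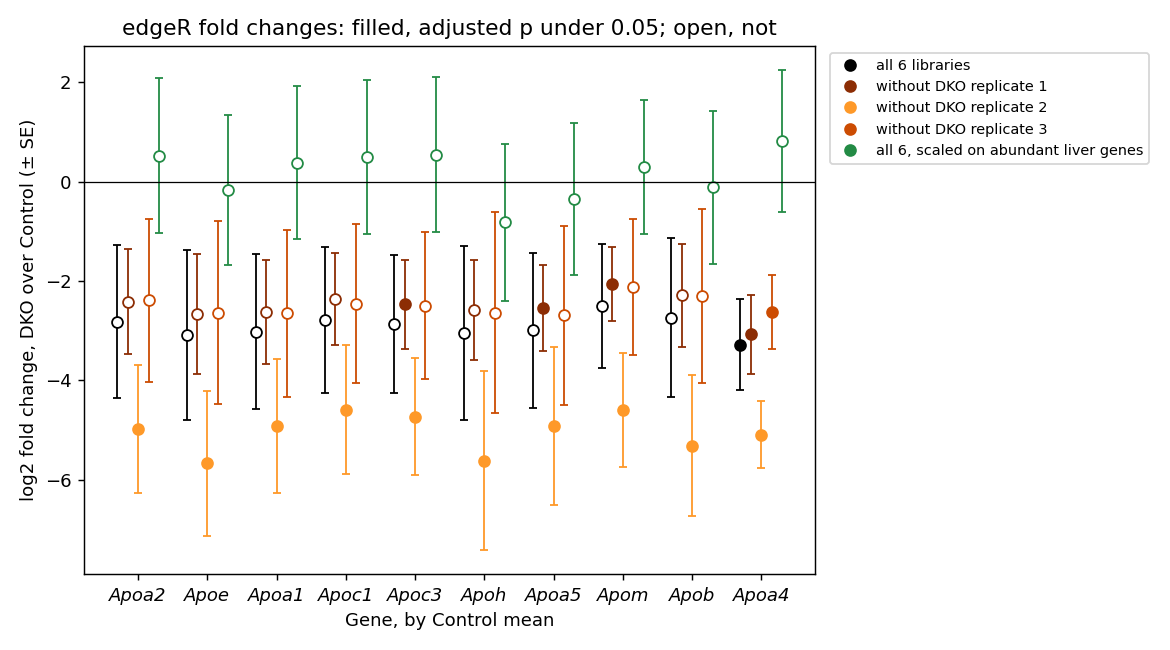
Log2 fold change of DKO over Control (± SE, edgeR) of each apolipoprotein with all 6 libraries, without each DKO library in turn, and scaled on abundant liver genes. Filled points passed an adjusted p of 0.05; without DKO replicate 2 all 10 lie at -4.59 or below, and on the abundant-gene scale they lie between -0.82 and 0.82.

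Set against other liver transcripts of the same library, the family was not uniformly low in the DKO libraries. There were 0.171, 0.119 and 0.0814 apolipoprotein reads per read of the 151 abundant liver genes in DKO replicates 1, 2 and 3, against 0.129, 0.134 and 0.128 in Control. The mean log2 ratio was -3.08 ± 0.533 in DKO and -2.94 ± 0.038 in Control (SD, n = 3 each; exact permutation p = 0.7, adjusted p = 0.9). The DKO libraries thus lay on both sides of the Control range, with replicate 1 above and replicates 2 and 3 below. Relative to Alb, the albumin transcript, the ratio was 1.80, 0.719 and 0.596 in DKO replicates 1, 2 and 3 and 0.642 to 0.743 in Control (exact permutation p = 0.9, adjusted p = 0.9).

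Single members differed from each other on this measure. Values are given relative to the Control mean, with intervals that cover counting error of the member only. In DKO replicate 1, Apoa2 stood at 2.02 (1.67 to 2.43), Apoc3 at 1.99 (1.34 to 2.86), Apoa1 at 1.76 (1.47 to 2.08) and Apoc1 at 1.69 (1.25 to 2.22). Apoe stood at 1.02 (0.864 to 1.19). Apoa2, Apoc3, Apoa1 and Apoc1 have exonic lengths of 537 to 1236 bases, and Apoe has 2138. Apom, within that span at 1013 bases, stood at 0.924 (0.112 to 3.34) on 2 reads, and Apob, the longest at 13934 bases, stood at 0.750 (0.470 to 1.14). In the same library Apoa5 (2522 bases) stood at 0.314 (0.0856 to 0.804) and Apoh (1594 bases) at 0.0986 (0.0119 to 0.356), with 2 reads of Apoh where 20.3 would match the Control ratio. Apoa4 stood at 4.86 (1.32 to 12.4), on 4 reads of which 2.44 were expected from background. Of the 3049 reads of abundant genes in this library, 658.3 were expected from background. With background subtracted from both sides, Apoa2 stood at 2.45, Apoc3 at 2.32, Apoa1 at 2.12, Apoc1 at 2.02 and Apoe at 1.22, against 0.360 for Apom, 0.136 for Apob, 0.0584 for Apoa5 and 0 for Apoh. The part of transcript length in these values was not tested.

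DKO replicate 3 had another pattern. Apoe was the lowest well-counted member, at 0.444 (0.413 to 0.476), followed by Apoh at 0.551 (0.460 to 0.655), Apob at 0.617 (0.537 to 0.707), Apoa2 at 0.674 (0.612 to 0.740) and Apoa1 at 0.739 (0.683 to 0.797). Apoc1, at 0.981 (0.879 to 1.09), and Apom, at 1.04 (0.680 to 1.52), were close to the Control ratio. In DKO replicate 2 the members lay between 0.719 (Apoa4) and 1.25 (Apom), while single Control libraries lay between 0.833 and 1.21 (both Apoa4). There Apoa1 stood at 0.833 (0.797 to 0.870) and Apoe at 0.868 (0.843 to 0.895), below their Control values of 0.921 to 1.07 and 0.932 to 1.06, and Apoa2 at 0.997 (0.951 to 1.04) was within its Control range.

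**Figure D3:**
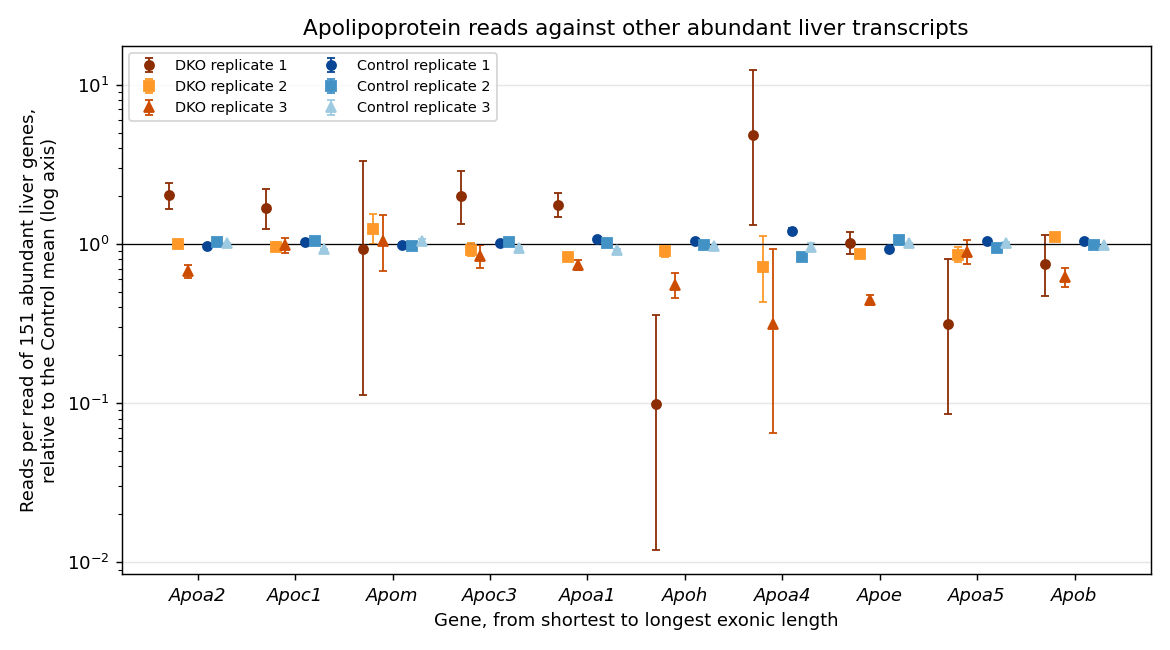
Reads of each apolipoprotein per read of 151 abundant liver genes, relative to the Control mean (log axis), with 95% Poisson intervals of the member's count and genes ordered by exonic length. In DKO replicate 1 the intervals of Apoa2, Apoc1, Apoc3, Apoa1 and Apoa4 lie above 1 and those of Apoh and Apoa5 below 1, while DKO replicate 2 lies between 0.719 and 1.25.

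In each DKO library some members had a share of the family outside the range of the Control libraries. The intervals cover counting error only, and Control libraries also differed from each other beyond them. Apoe made up 36.5% (36.4 to 36.6) in Control replicate 1 and 40.0% (39.9 to 40.2) in Control replicate 2. In DKO replicate 2 Apob made up 8.98% (8.48 to 9.52), against 7.0% to 7.72% in Control, and Apom 0.749% (0.607 to 0.923), against 0.516% to 0.577%. Apoe made up 30.2% (26.4 to 34.3), 37.1% (36.2 to 38.0) and 27.6% (26.0 to 29.3) of apolipoprotein reads in DKO replicates 1, 2 and 3, against 36.5%, 40.0% and 39.9% in Control. Apoa2 made up 21.9% (18.6 to 25.7), 15.6% (14.9 to 16.2) and 15.3% (14.1 to 16.7) in the DKO libraries, against 13.8%, 14.1% and 14.6%. Apoc1 made up 9.62% (7.37 to 12.5), 7.88% (7.41 to 8.39) and 11.7% (10.6 to 13.0) in the DKO libraries, against 7.71%, 7.61% and 7.03%. Apoa2 and Apoc1 were thus higher in every DKO library than in every Control library, by 3.41 and 2.29 percentage points on average, and the other 8 members overlapped between the groups. Without DKO replicate 1 the Apoa2 difference was 1.25 points, and without DKO replicate 3 that of Apoc1 was 1.30 points. No member passed a two-sided exact permutation test (p = 0.1 to 1, adjusted p of at least 0.4 over the 10 members). Full separation of the groups gives p = 0.1 in this exact permutation test, the lowest that 3 against 3 libraries allow. At that rate some of 10 members can separate by chance. Shares of the same total are also tied to each other, so the members are not independent.

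Some ratios between neighbours in the gene clusters were lower in every DKO library, and others overlapped between the groups. Apoe had 3.14, 4.70 and 2.35 reads per Apoc1 read in DKO replicates 1, 2 and 3, against 4.73 to 5.67 in Control, all DKO libraries being lower. Apoa1 had 4.69, 4.82 and 4.68 reads per Apoc3 read in the DKO libraries, against 5.18 to 5.59 in Control. Apoa5 per Apoa1 read was 0.0294, 0.169 and 0.198 in the DKO libraries, against 0.154 to 0.182. Apoa4 per Apoa1 read was 0.0294, 0.00917 and 0.00455, against 0.00877 to 0.012. No test and no interval of counting error was computed for these ratios, and DKO replicate 1 had only 29 reads of Apoc3 and 50 of Apoc1. Across clusters, Apoe per Apoa1 read was 1.15, 2.08 and 1.20 in the DKO libraries, against 1.74 to 2.18. Lower values in every DKO library were not limited to neighbours. Apoh per Apoa2 read, from different chromosomes, was 0.0175, 0.324 and 0.294 in the DKO libraries, against 0.344 to 0.390. Apoa1 per Apoa2, Apoe per Apob and Apom per Apoa1 read overlapped between the groups. Apoa1, Apoc3, Apoa4 and Apoa5 together made up 33.3% (29.4 to 37.4), 24.7% (23.9 to 25.5) and 32.6% (30.9 to 34.4) of apolipoprotein reads in DKO replicates 1, 2 and 3, against 25.4% to 28.3% in Control. Replicate 2 lay below the Control range and the other DKO libraries above it.

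**Figure D4:**
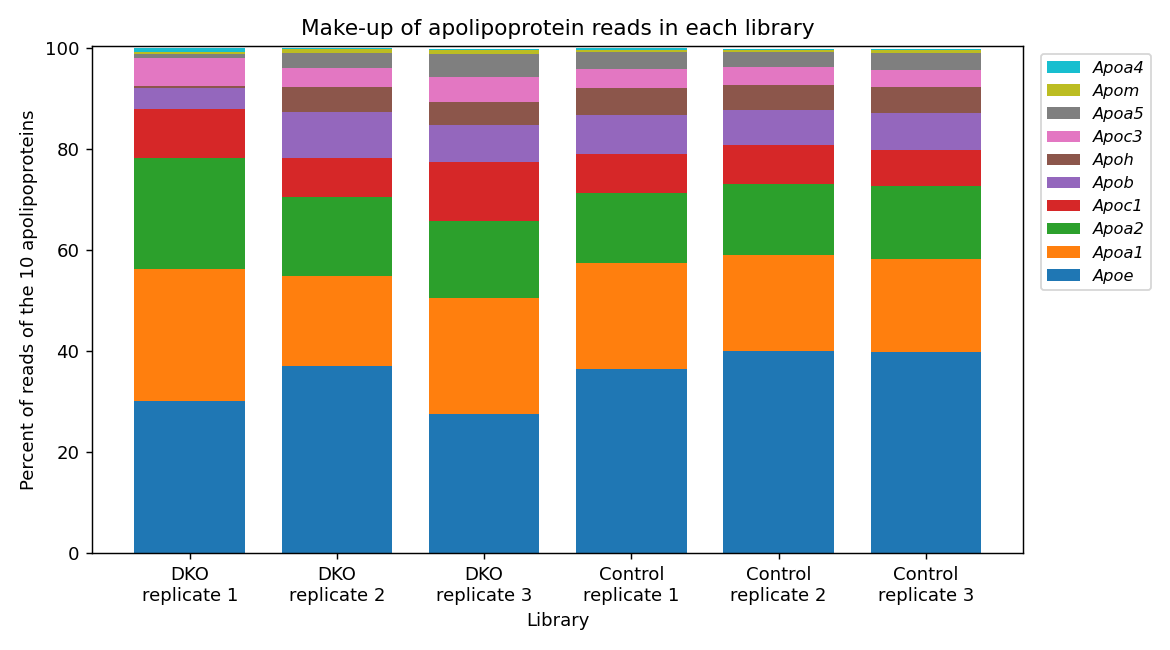
Percent of the reads of the 10 apolipoproteins that fell on each gene, in each library. Apoe makes up 27.6% to 37.1% in the DKO libraries and 36.5% to 40.0% in the Control libraries, and Apoh is nearly absent from DKO replicate 1 at 0.385%.

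The rarer apolipoproteins and the genes that build, remodel, take up and regulate lipoproteins were counted in the same fit, in which 12.8% of all genes were lower and 31.3% higher. Of the other apolipoproteins 12 of 15 passed the filter on low counts, with 2 called higher and 1 lower and a median log2 fold change of -2.15. Apof, Apoc2 and Clu, the highest of them per length in Control, had log2 fold changes of -3.20 (adjusted p = 0.0817), -2.45 (0.120) and -2.59 (0.152) in edgeR. Apool, a mitochondrial cristae protein in spite of its name, fell by 1.65 on the log2 scale (adjusted p = 0.0325 in edgeR). Apod and Apol10b were called higher. Apol10b had 30, 7 and 16 reads in the DKO libraries and 0, 0 and 4 in Control, with 10.9 of the 53 DKO reads expected from background. Apod, a lipocalin of brain and other tissues, had 13, 12 and 4 reads in the DKO libraries and 0 in Control, or at least 142-fold higher when the Control group is set to 3 counts in all, and 12.1 of its 29 DKO reads were expected from background.

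Lipoprotein assembly and secretion had 0 higher and 1 lower of 15 genes and a median of -2.42. Dgat1, which makes triglyceride for the particles, had no reads in any DKO library and 437, 405 and 384 in Control, at least 27.8-fold lower with the DKO group set to 3 counts in all, and 14.4 reads were expected from background in the DKO libraries. Dgat2 (-2.60, adjusted p = 0.175 in edgeR), P4hb (-2.42, 0.172), a subunit of the microsomal triglyceride transfer protein, and Sar1b (-2.51, 0.169), a GTPase that loads secretory vesicles, were not called. Lipoprotein remodelling had 1 higher and 1 lower of 14 genes and a median of -1.91. Gpihbp1, which anchors lipoprotein lipase to capillaries, had 0, 0 and 2 reads in the DKO libraries and 272, 127 and 137 in Control, which edgeR gave as -4.17 on the log2 scale (adjusted p = 0.0125). Abcg1, a cholesterol exporter, rose by 2.99 on the log2 scale (adjusted p = 0.0215), with 34.4 of 91 DKO reads expected from background, and its call was lost when background was subtracted (adjusted p = 0.244). The enzymes Pon1 and Lcat had -2.52 and -2.79 (adjusted p = 0.259 and 0.155 in edgeR).

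Lipoprotein receptors had 2 higher and 2 lower of 12 tested genes and a median of -2.12. Sdc1, a heparan sulfate proteoglycan that binds remnants, had 18, 27 and 15 reads in the DKO libraries and 3285, 2425 and 2112 in Control, which edgeR gave as -3.02 on the log2 scale (SE 0.80, adjusted p = 0.0125). Lrp2, a receptor of kidney epithelium, and Sorl1, a sorting receptor, were called higher with 8.25 and 4.30, and 78.6 and 53.3 of their 303 and 71 DKO reads were expected from background. After background subtraction the call of Sorl1 was lost (adjusted p = 0.109). Lsr and Lrp1, which take up remnants, had -2.21 and -2.06 (adjusted p = 0.164 and 0.155). Regulators of apolipoprotein genes had 2 higher and 3 lower of 22 genes and a median of -1.61. Nr1d1, a circadian repressor, and Nr1h2, the oxysterol receptor LXRβ, fell by 6.29 and 4.81 on the log2 scale (adjusted p = 0.00104 and 0.00165 in edgeR). They had 2 and 4 reads over the DKO libraries, where 14.5 and 15.8 were expected from background. On the abundant-gene scale neither was called (log2 fold changes of -2.45 and -1.31, adjusted p = 0.210 and 0.328). Nr2f1 and Ppargc1a were called higher with 5.25 and 2.81 (adjusted p = 0.00104 and 0.0386), and 24.0 and 31.0 of their 44 and 116 DKO reads were expected from background. The call of Ppargc1a was lost after background subtraction (adjusted p = 0.176), and Nr2f1 and Apod then no longer passed the filter on low counts. Cebpa, Creb3l3 and Nr1h4, the highest of that list per length in Control, had -2.52, -2.70 and -2.68 (adjusted p = 0.205, 0.109 and 0.134). On the abundant-gene scale the calls over these 5 lists became 22 higher and 1 lower, against 7 higher and 8 lower with TMM. On that scale 62.5% of all genes were called higher. The lower one was Dgat1, while Apool and Sdc1 had positive fold changes there (3.83 and 2.39).

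**Figure D5:**
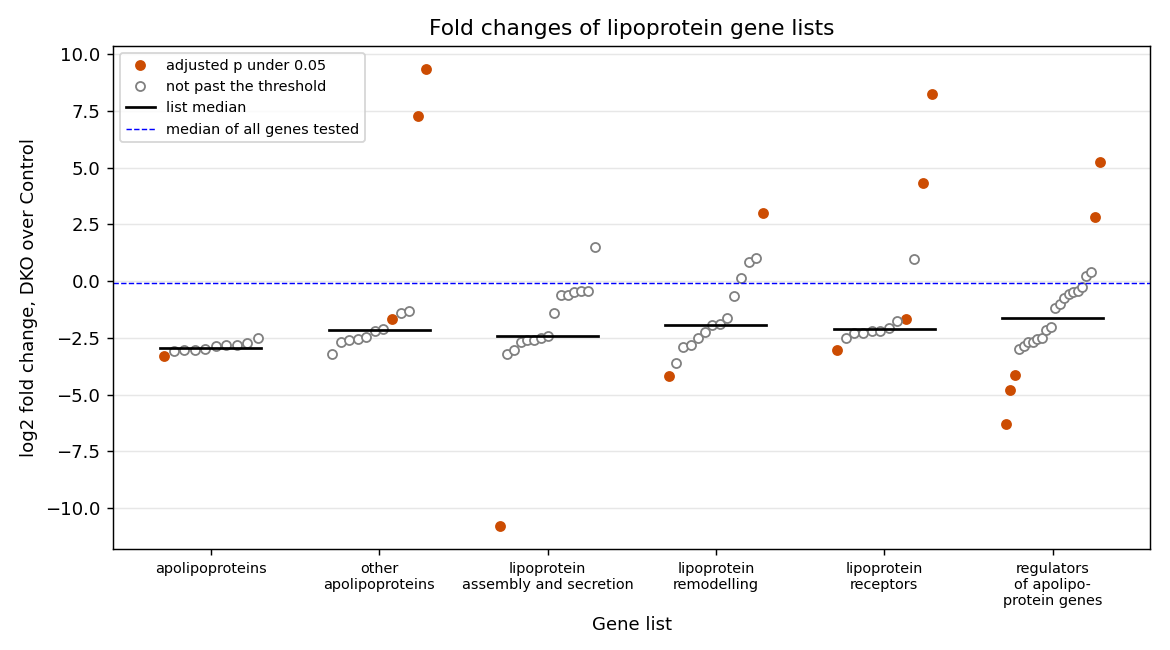
Log2 fold change of DKO over Control (edgeR, TMM) of every tested gene of the 6 lists, with the median of each list and of all genes tested. The 10 apolipoproteins lie between -3.28 and -2.50, and Apoa4 is the called one.

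Outside the lipoprotein lists and cell type markers, the genes with the profile most like that of the summed apolipoproteins were Pzp, Rdh7, Hao1, F2 and Acsl1. They were sought among 1789 genes with at least 3000 Control counts, a pool from which all listed genes and markers were left out. Likeness was the root mean square difference over the 6 libraries of the log2 share of gene counts, each set to its own Control mean. It was 0.0717 for Pzp, a liver-made protease inhibitor of plasma, 0.0846 for Rdh7, a retinol dehydrogenase, 0.110 for Hao1, the hydroxyacid oxidase of peroxisomes, 0.111 for F2, which encodes prothrombin, and 0.124 for Acsl1, which activates fatty acids. The distance was 0.565 for Alb. Within the family it was smallest for Apoa1 (0.218) and Apoe (0.253) and largest for Apoh (1.39). The sum contains these members, and Apoa1 and Apoe made up 19.5% and 38.8% of it on average in Control, so their closeness was partly fixed in advance. Apoh had only 2 reads in DKO replicate 1, where 2.14 were expected from background.

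Markers of cell types other than hepatocytes moved in both directions between the groups. In the edgeR fit used for them, 12.8% of all genes tested were called lower and 31.3% higher. Macrophages make Apoe, and the 10 markers of Kupffer cells and macrophages summed to 96.9, 169.5 and 104.6 CPM in DKO replicates 1, 2 and 3, against 234.0 to 319.7 CPM in Control. In edgeR 2 of the 10 were called lower, C1qa and C1qc, the second with no read in any DKO library, and none was called higher. C1qb, from the same complement complex, had 18, 27 and 14 reads in the DKO libraries and 428, 273 and 260 in Control, a log2 fold change of -0.02 (adjusted p = 0.980).

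Enterocytes make Apob and Apoa4, and their 10 markers summed to 80.7, 161.9 and 59.0 CPM in the DKO libraries, against 210.3 to 239.0 CPM in Control. In Control the sum came mainly from Fabp2, Anpep and Cdhr5, all 3 of which were at 0 in DKO replicate 1. Of the 6 that could be tested, Fabp2 was called lower and Fabp6, Sis and Vil1 higher. Fabp6 had 10, 1 and 6 reads in the DKO libraries and 0 in Control, with 2.26 of the 17 expected from background. Sis had 14, 4 and 30 in the DKO libraries and 0, 1 and 0 in Control, with 35.1 of the 48 expected from background, and Vil1 had 13 DKO reads where 16.7 were expected. Lct and Mep1b had 10 and 21 reads over the DKO libraries, where 30.2 and 12.4 were expected, and none in Control, and Alpi had none in any library.

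The 6 cholangiocyte markers summed to more in every DKO library, at 326.1, 192.4 and 140.8 CPM, than in Control, at 62.1 to 82.9 CPM. The sum came mainly from Spp1 in Control (1117, 810 and 745 reads) and mainly from Sox9 in the DKO libraries, so it did not follow the same genes in both groups. Of 5 tested, 3 were called higher, Sox9, Epcam and Krt7, and Spp1 was called lower. Over the DKO libraries Sox9, Epcam and Krt7 had 271, 67 and 16 reads, where 19.5, 10.3 and 33.2 were expected from background. Krt19 and Cftr had 9 and 3 DKO reads, where 8.73 and 36.6 were expected. Sox9, a factor of bile duct cells, had 78, 67 and 126 reads in the DKO libraries and 109, 32 and 39 in Control (log2 fold change 4.51, adjusted p = 0.000857 in edgeR). The marker sums of sinusoidal endothelial cells (161.6 to 758.7 CPM in DKO, 170.9 to 319.3 in Control), hepatic stellate cells (194.3 to 768.4 in DKO, 185.4 to 313.6 in Control) and blood cells (226.0 to 592.3 in DKO, 272.6 to 283.9 in Control) overlapped between the groups. Of these, 1 of 6, 2 of 7 and 2 of 6 tested were called higher and none lower, against 31.3% and 12.8% of all genes tested. Of the 2 called blood markers, Ptprc had 68 DKO reads where 86.2 were expected from background, and Cd3e had 138 where 19.2 were expected. The part of these cell types in the apolipoprotein values was not tested.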

How the data were processed

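RNA-seq gene counts were available for 6 liver libraries, 3 DKO and 3 Control, grouped and numbered by their titles. Each deposited file lists whole read counts by Ensembl gene ID. The submitters' processing notes name STAR, HTSeq and mm10. No version, kit, strand setting or annotation release was given in those notes or the labels. The 5 rows that name no gene stayed out of library sizes and tests. Names came from a gene name reference (42462 of 43346 IDs matched), and positions and merged exonic lengths from GENCODE M21.

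The main test was edgeR 4.0.16 in R 4.3.3, quasi-likelihood with robust fitting, TMM, a filterByExpr filter, and a threshold of 0.05 on Benjamini-Hochberg adjusted p over all 15561 genes tested, two-sided. The SE of a log2 fold change is its size over the square root of F. DESeq2 1.42.0 and limma-voom 3.58.1 were alternatives. Abundant liver genes were 151 protein-coding genes, not mitochondrial, whose Control counts summed to over 30000, outside the lipoprotein lists. Expected background was the reads per kb at 8600 protein-coding genes whose Control counts summed to 10 or fewer, times exonic length. It is a mean rate, from which single genes departed. Library measures were compared with exact permutation tests (20 arrangements). Intervals are 95% Wilson for shares and exact Poisson for counts, and they and the floor of 3 counts cover counting error only, since reads carry no molecular identifiers. No pair of libraries held identical values or agreed within sampling noise. The test was run before use on simulated counts of 11861 genes with 200 changed ones, and it made 8 false calls. The coefficient of variation between libraries that edgeR estimated was 18.8% within Control and 63.9% over all libraries. How many false calls the test makes on libraries as shallow and variable as the DKO ones was not tested.

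The members, lists and alternatives were chosen with earlier results of these data known. The genes named are the 10 members, from each other list the 3 highest per length in Control and up to 2 called ones per direction, and the 5 genes nearest in profile. Some genes that this rule names are not reported here. The remark on Apoa4, Angptl8 and Nr1d1 in Control replicate 1 was chosen after their values were seen.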

Additional observations from a re-analysis of the deposited data

How the results depend on the processing

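With edgeR and TMM 1 apolipoprotein was called. The count was 3 with DESeq2's size factors, 7 without a filter, 10 with DESeq2, and 0 after background subtraction and likewise 0 on the abundant-gene scale, and it ranged from 0 to 10 when each library was left out. Over the 5 other lists 15 genes were called, 37 with DESeq2's size factors, 56 without a filter, 48 with DESeq2, 23 on the abundant-gene scale and 11 to 49 when each library was left out. On the abundant-gene scale the log2 fold changes of Apoa1, Apoa2, Apoa4, Apoc1, Apoc3 and Apom turned to 0.38, 0.52, 0.82, 0.49, 0.54 and 0.28; the cause was not tested. They kept their sign in the other 15 alternatives. The difference in the share of gene counts stayed negative in 10 alternatives, from -4.75 to -1.64 percentage points. The difference in log2 ratio to abundant genes (-0.14) turned to 0.10 with abundant genes over 100000 Control counts and ranged from -0.41 to 0.12 when each library was left out, the positive value without DKO replicate 3. It was -1.41 with a minimum of 10000 Control counts, where Lars2 alone held 77.3% of the set's reads in DKO replicate 1 and at most 0.105% in Control. In the make-up of the family, Apoa4 turned to -0.0504 percentage points after background subtraction; without DKO replicate 1, Apoa4, Apoa5 and Apob turned to -0.0731, 0.591 and 0.764; and with DKO replicate 2 as the only DKO library, an alternative chosen after seeing the data, Apoa1, Apoa4 and Apob turned to -1.63, -0.0437 and 1.61. When each library was left out these 3 ranged from -0.0731 to 0.259, -1.31 to 0.591 and -1.61 to 0.764 in turn for Apoa4, Apoa5 and Apob. Fitting without the robust step and leaving Alb out of the abundant genes were also added then: the first called 1 apolipoprotein and 17 other list genes (13.8% of all genes lower and 31.5% higher), and the second gave -0.23 for the log2 ratio.

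The replicate numbers did not pair the libraries: deviations of same-numbered libraries correlated at 0.131, 0.0854 and -0.0261, and 1 of 3 DKO libraries correlated best with its own number. With the replicate block 1 apolipoprotein and 24 genes of the other lists were called, with 14.0% of all genes called lower and 26.6% higher. Depth limits DKO replicate 1 most, where 6 of 10 apolipoproteins had 20 or more reads.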

Other observations

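Within the Control group, Apoa4 was higher in replicate 1 than in the others, at 1966 reads against 1179 and 1204. In the same library Angptl8, a liver factor that rises with feeding and limits lipoprotein lipase, had 1046 reads against 318 and 246, and Nr1d1, a circadian repressor, had 1664 against 475 and 351. The other 9 apolipoproteins varied by at most 7.83% between Control libraries, as a coefficient of variation of their share of gene counts. The labels give no time of day or feeding state.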
